A study of Mus musculus with 14 samples.

Results

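The transcripts described here are those of 10 mouse cathepsin genes, Ctsa, Ctsb, Ctsc, Ctsd, Ctsf, Ctsh, Ctsk, Ctsl, Ctss and Ctsz. They were chosen by name, not by their values, and found through the RefSeq accession of each array probe. All 10 were on the array, on 12 of its 55482 non-control probes (Ctsa and Ctsd have 2 each), among 14870 named genes that were bright enough to be tested. The study measured RNA of male C57BL/6 mice, aged 8 weeks, on 1-colour Agilent arrays with 1 sample per array, from separate mice as far as the design text tells. The tissue was the border zone of the ventricle, next to an infarct made by tying off the left anterior descending branch of the coronary arteries. The groups were myocardial infarction (MI) after 14 days (n = 5), MI after 3 days (n = 5) and sham surgery without ligation (n = 4). All mice were of the same strain and carried no engineered allele that the labels name. The labels do not say how long after surgery the sham hearts were taken, and they name a poly-A selection step as well as labelling from 200 ng of total RNA.

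Cathepsins are proteases of the lysosome, the acidic compartment in which cells digest proteins. They are made as inactive proenzymes, carried to lysosomes by sorting receptors, and activated there by removal of a propeptide. Most of the 10 are papain-like cysteine proteases, while Ctsd encodes an aspartic protease and Ctsa a serine carboxypeptidase. Macrophages hold large amounts of them, and some are also secreted and cut the extracellular matrix. Cystatins, stefins and some serpins inhibit the cysteine cathepsins.

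Levels are given as log2 of the probe's fluorescence minus the 75th percentile of its array, so 1 unit is a doubling and levels of different genes cannot be set against each other. Changes are log2 fold changes ± SE from one limma fit of all 14 arrays, with the first-named group over the second. P-values were adjusted by the Benjamini-Hochberg method across the 32261 probes tested, and a change counts as past the threshold at an adjusted p under 0.05. The 75th percentile of the arrays lay between 188.6 and 443 intensity units. Scanner output for 10 arrays came from 3 slides, and every cathepsin probe was well above background and none was saturated on all 10. MI 14 days replicate 3 stood apart from its group on the second principal component (score -76.2, against -41.6 to -23.0 for the other 4). Contractile genes of cardiomyocytes, the defining cells of the labelled tissue, were high on every array. The mean level of 9 such markers was 7.98 to 8.50 at MI 14 days, 7.19 to 7.51 at MI 3 days and 8.36 to 8.57 in sham hearts. In a piece of tissue, a change in the number of cells of a type and a change in the RNA of each cell cannot be told apart.

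At 3 days after infarction 9 of the 10 cathepsin transcripts were past the threshold against sham, 8 higher and 1 lower. Among all named genes 70.2% were past it, 29.8% higher and 40.5% lower. The median change of the 10 was 1.10, against -0.19 over all tested probes. Ctss had the largest rise of the 10, 9.19-fold, followed by Ctsz (4.69-fold), Ctsc (4.22-fold), Ctsk (2.79-fold) and Ctsb (2.36-fold). Ctsf was the 1 that fell, to a level 3.40-fold below sham. MI 3 days and sham arrays were fully apart for 9 members, against 63.2% of all named genes.

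At 14 days 4 of the 10 differed from sham, 3 higher and 1 lower. This share was like that of all named genes, 40.1%, of which 15.9% were higher and 24.2% lower. The 3 were Ctsk (4.76-fold higher), Ctss (2.25-fold) and Ctsz (1.89-fold), and Ctsf was 1.26-fold lower. The median change of the 10 was 0.13, against -0.09 over all tested probes. The 4 that differed were also those whose arrays did not overlap with sham, against 35.2% of all named genes.

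Between the times 9 of the 10 differed, 7 lower and 2 higher at 14 days, against 60.5% of all named genes (26.9% lower and 33.6% higher). The median change was -0.63, against 0.13 over all tested probes. Ctsk and Ctsf were the 2 that were higher at 14 days than at 3 days. The arrays of both times were fully apart for 8 members, against 46.1% of all named genes. The comparisons share arrays, so their values for a gene are not independent of each other.

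**Figure D1:**
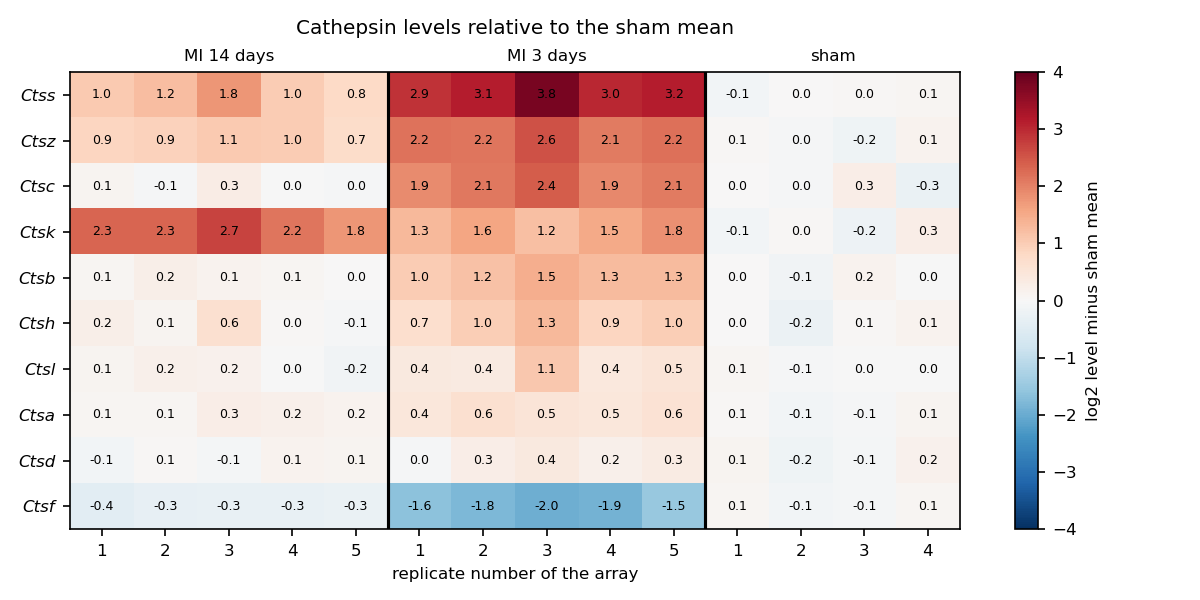
Level of each cathepsin transcript on each of the 14 arrays, as a log2 difference from the sham mean, for MI 14 days, MI 3 days and sham (columns, by replicate number). Ctss, Ctsz, Ctsc and Ctsb are reddest in the MI 3 days columns, Ctsk in the MI 14 days columns, and Ctsf is blue in the MI 3 days columns.

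Ctss encodes cathepsin S, a protease of antigen-presenting cells that cuts the invariant chain of MHC class II molecules and stays active at neutral pH. Its levels were 4.06, 4.25, 4.78, 4.02 and 3.81 at MI 14 days, 5.89, 6.16, 6.81, 6.04 and 6.17 at MI 3 days, and 2.89, 3.03, 3.06 and 3.08 in sham hearts. The 3 groups did not overlap, with MI 3 days highest and sham lowest. The rise was 3.20 ± 0.19 at 3 days (adjusted p = 1.44e-08) and 1.17 ± 0.19 at 14 days (adjusted p = 0.000698). Between the times the level fell by 2.03 ± 0.18 (adjusted p = 9.79e-07). In each MI group replicate 3 had the highest Ctss. Of the 14870 named genes ranked by change, Ctss was number 286 from the top at 3 days and number 550 at 14 days.

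Ctsz encodes cathepsin Z (also called X), a carboxypeptidase found mainly in immune cells. It had levels of 3.72, 3.78, 3.92, 3.89 and 3.61 at MI 14 days, 5.04, 5.02, 5.42, 4.93 and 5.06 at MI 3 days, and 2.92, 2.83, 2.70 and 3.01 in sham hearts. The order was that of Ctss, again with no overlap between any groups. The changes were 2.23 ± 0.11 at 3 days (adjusted p = 2.33e-09), 0.92 ± 0.11 at 14 days (adjusted p = 5.87e-05) and -1.31 ± 0.10 between the times (adjusted p = 2.53e-07).

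Ctsc encodes dipeptidyl peptidase 1, which activates the serine proteases of neutrophil, mast cell and cytotoxic lymphocyte granules. Its levels were 1.76, 1.61, 1.95, 1.65 and 1.62 at MI 14 days, 3.54, 3.76, 4.09, 3.57 and 3.74 at MI 3 days, and 1.69, 1.63, 1.92 and 1.41 in sham hearts. MI 3 days stood above both other groups without overlap, and MI 14 days lay within the range of sham but for 1 array. The 3-day rise was 2.08 ± 0.13 (adjusted p = 1.65e-08), and the level at 14 days was below that at 3 days by about the same amount (-2.02 ± 0.12, adjusted p = 2.58e-08). Against sham the 14-day difference was 0.05, with a 95% interval of -0.22 to 0.33.

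Ctsb encodes cathepsin B, which acts both within chains and as a peptidyl-dipeptidase. At MI 14 days it had levels of 6.33, 6.48, 6.37, 6.32 and 6.24, at MI 3 days 7.26, 7.40, 7.69, 7.51 and 7.51, and in sham hearts 6.25, 6.09, 6.39 and 6.22. As with Ctsc, only the MI 3 days arrays stood apart from the other groups. The change was 1.24 ± 0.10 at 3 days (adjusted p = 1.03e-07) and -1.13 ± 0.09 between the times (adjusted p = 3.33e-07). The 14-day difference from sham was 0.11, with a 95% interval of -0.09 to 0.32.

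Ctsh encodes cathepsin H, an aminopeptidase. Its levels were 4.58, 4.43, 4.98, 4.38 and 4.28 at MI 14 days, 5.02, 5.33, 5.63, 5.19 and 5.33 at MI 3 days, and 4.35, 4.11, 4.39 and 4.48 in sham hearts. MI 3 days was highest, and the highest MI 14 days array, replicate 3, came close to the lowest MI 3 days array. The rise at 3 days was 0.97 ± 0.15 (adjusted p = 5.72e-05), and the change between the times was -0.77 ± 0.14 (adjusted p = 0.000375). Fitted on the 10 scanner arrays with a slide block, the last value was -0.71 (adjusted p = 0.0573). At 14 days the difference from sham was 0.20, with a 95% interval of -0.12 to 0.52.

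Ctsl and Ctsa, a lysosomal endopeptidase and the carboxypeptidase that protects neuraminidase and beta-galactosidase, changed less. Ctsl had levels of 5.70, 5.80, 5.79, 5.59 and 5.45 at MI 14 days, 6.01, 5.96, 6.68, 6.03 and 6.11 at MI 3 days, and 5.67, 5.55, 5.60 and 5.60 in sham hearts. Its MI 3 days arrays lay above those of both other groups. It was 1.47-fold higher than sham at 3 days (0.55 ± 0.13, adjusted p = 0.00238), and without MI 3 days replicate 3, its highest array by a wide gap, the change was 0.42. Ctsl at 14 days differed from that at 3 days by -0.49 ± 0.13 (adjusted p = 0.00448) and from sham by 0.06, with a 95% interval of -0.23 to 0.35. Ctsa had levels of 5.99, 5.98, 6.16, 6.11 and 6.06 at MI 14 days, 6.35, 6.54, 6.42, 6.37 and 6.50 at MI 3 days, and 5.96, 5.81, 5.85 and 6.02 in sham hearts. The MI 3 days arrays of Ctsa lay above those of both other groups, which overlapped each other. Its change was 0.52 ± 0.08 at 3 days (adjusted p = 3.45e-05) and -0.38 ± 0.07 between the times (adjusted p = 0.000543).

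The 14-day difference of Ctsa was 0.15 (95% interval -0.01 to 0.31), and it was past the threshold when arrays were set to the 75th percentile of the tested probes (0.23, adjusted p = 0.0393) or quantile normalized (0.33, adjusted p = 0.00731). The second probe of Ctsa did not show the 3-day rise, with a difference of 0.04 ± 0.12 from sham (95% interval -0.20 to 0.29) and levels of -1.65 to -1.13 over all arrays. With the mean of both probes the change between the times was -0.17 (adjusted p = 0.0599), and with normexp on the scanner arrays it was -0.32 (adjusted p = 0.0703).

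Ctsd encodes cathepsin D, the main aspartic protease of lysosomes. Its levels were 7.0, 7.17, 7.04, 7.25 and 7.21 at MI 14 days, 7.08, 7.38, 7.49, 7.32 and 7.44 at MI 3 days, and 7.22, 6.93, 7.02 and 7.28 in sham hearts. All 3 groups overlapped, and no comparison was past the threshold. The 3-day difference was 0.23 ± 0.10 (adjusted p = 0.0631), with a 95% interval of 0.01 to 0.46. This value depended on the scaling of the arrays. It was 0.28 (adjusted p = 0.0264) with the 75th percentile of tested probes, 0.41 (adjusted p = 0.00635) with median centring and 0.40 (adjusted p = 0.00252) with quantile normalization. It was also past the threshold without sham replicate 4 (0.29) and without MI 3 days replicate 1 (0.30). Between the times the difference was -0.21 ± 0.10 (adjusted p = 0.0859), and past the threshold with median centring (-0.41), with quantile normalization (-0.24) and without MI 3 days replicate 1 (-0.27). The second probe of Ctsd gave 0.09 ± 0.20 at 3 days and -0.15 ± 0.20 at 14 days.

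Ctsf encodes cathepsin F, a cysteine protease with an unusually long propeptide that can also process the invariant chain in macrophages. Its levels were 1.5, 1.59, 1.63, 1.62 and 1.66 at MI 14 days, 0.30, 0.13, -0.04, 0.03 and 0.41 at MI 3 days, and 2.0, 1.83, 1.86 and 2.02 in sham hearts. The 3 groups did not overlap, as for Ctss, but here MI 3 days was lowest and sham highest. The change was -1.76 ± 0.10 at 3 days (adjusted p = 5.52e-09) and 1.43 ± 0.09 between the times (adjusted p = 3.99e-08). MI 3 days replicate 3, which was the highest array of its group for 7 members, was the lowest for Ctsf. At 14 days the difference from sham was -0.33 ± 0.10 (adjusted p = 0.0170). It was not past the threshold with the 75th percentile of tested probes (-0.25, adjusted p = 0.0634) or with quantile normalization (-0.24, adjusted p = 0.0641).

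Ctsk encodes cathepsin K, the collagen-degrading protease by which osteoclasts resorb bone, also made by activated fibroblasts. It had levels of 3.24, 3.26, 3.62, 3.08 and 2.68 at MI 14 days, 2.22, 2.5, 2.12, 2.45 and 2.74 at MI 3 days, and 0.81, 0.97, 0.73 and 1.19 in sham hearts. Both MI groups lay above sham on every array, while the lowest MI 14 days array, replicate 5, lay below the highest MI 3 days array. The rise was 1.48 ± 0.17 at 3 days (adjusted p = 4.90e-06) and 2.25 ± 0.17 at 14 days (adjusted p = 3.37e-06), which placed Ctsk at number 116 of the 14870 named genes. The change between the times was 0.77 ± 0.16 (adjusted p = 0.00126). It was 0.56 on the 10 scanner arrays (adjusted p = 0.0852), 0.43 with the slide as a block (adjusted p = 0.264) and 0.39 within the 1 slide that held both times. The rise against sham was kept in each of these settings, with values of 1.40 to 1.70 at 3 days and 2.04 to 2.37 at 14 days over 25 alternatives.

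**Figure D2:**
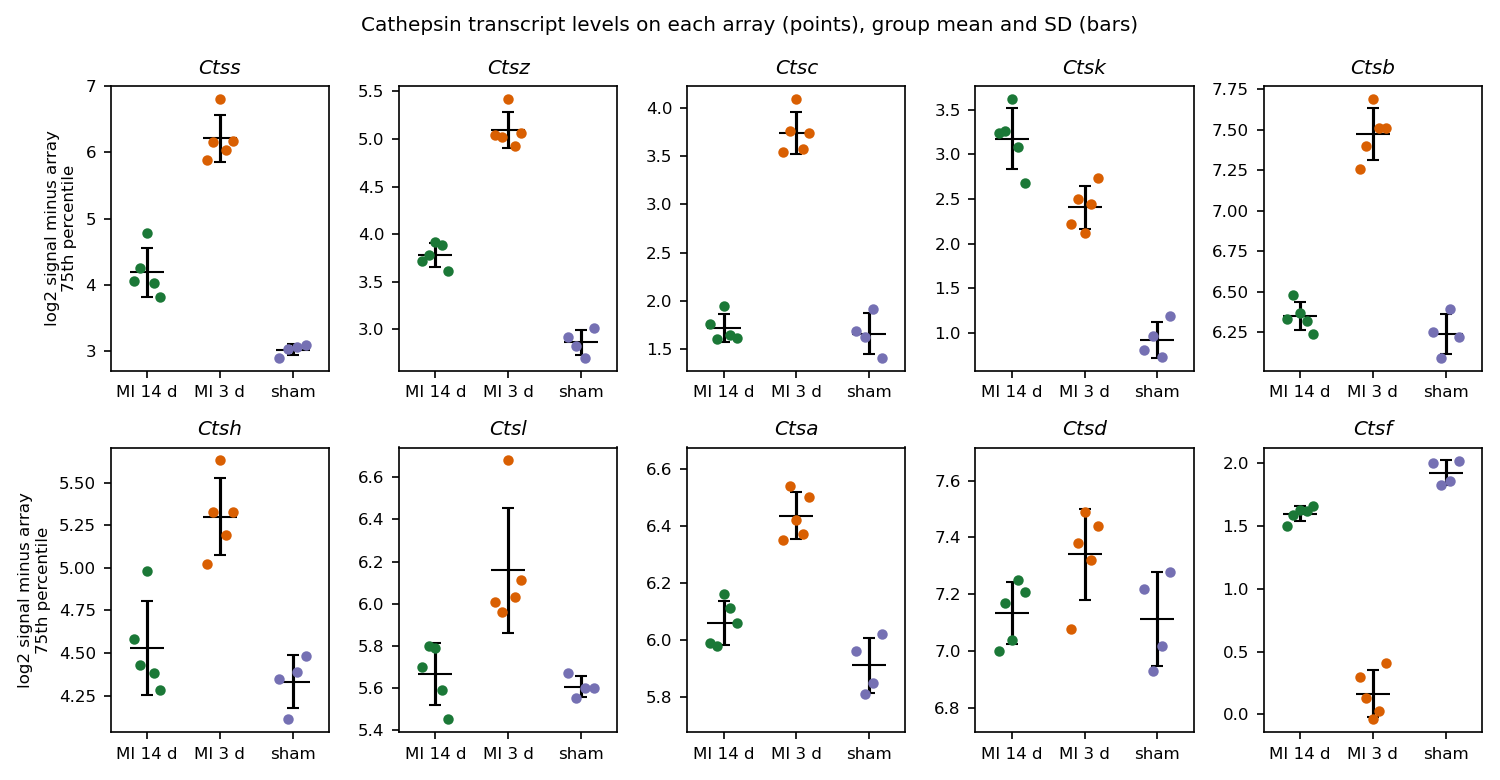
Log2 level, relative to the 75th percentile of the array, of the 10 cathepsin transcripts at MI 14 days, MI 3 days and in sham hearts, each panel on its own scale. Points are arrays and bars are the group mean and SD. Ctss, Ctsz and Ctsf show 3 separate groups, Ctsk is high at both MI times, and the groups of Ctsd overlap.

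The spread between arrays of 1 group was small beside the larger changes. The SD over the members was 0.06 to 0.37 at MI 14 days, 0.08 to 0.35 at MI 3 days and 0.05 to 0.21 in sham hearts. The same arrays were often high together. MI 14 days replicate 3 was the highest of its group for 6 members, MI 3 days replicate 3 for 7 and sham replicate 4 for 7. MI 14 days replicate 5, MI 3 days replicate 1 and sham replicate 2 were each the lowest of their group for 6. With each of the 14 arrays left out in turn, the called count was 9 or 10 at 3 days, 4 at 14 days and 9 or 10 between the times.

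**Figure D3:**
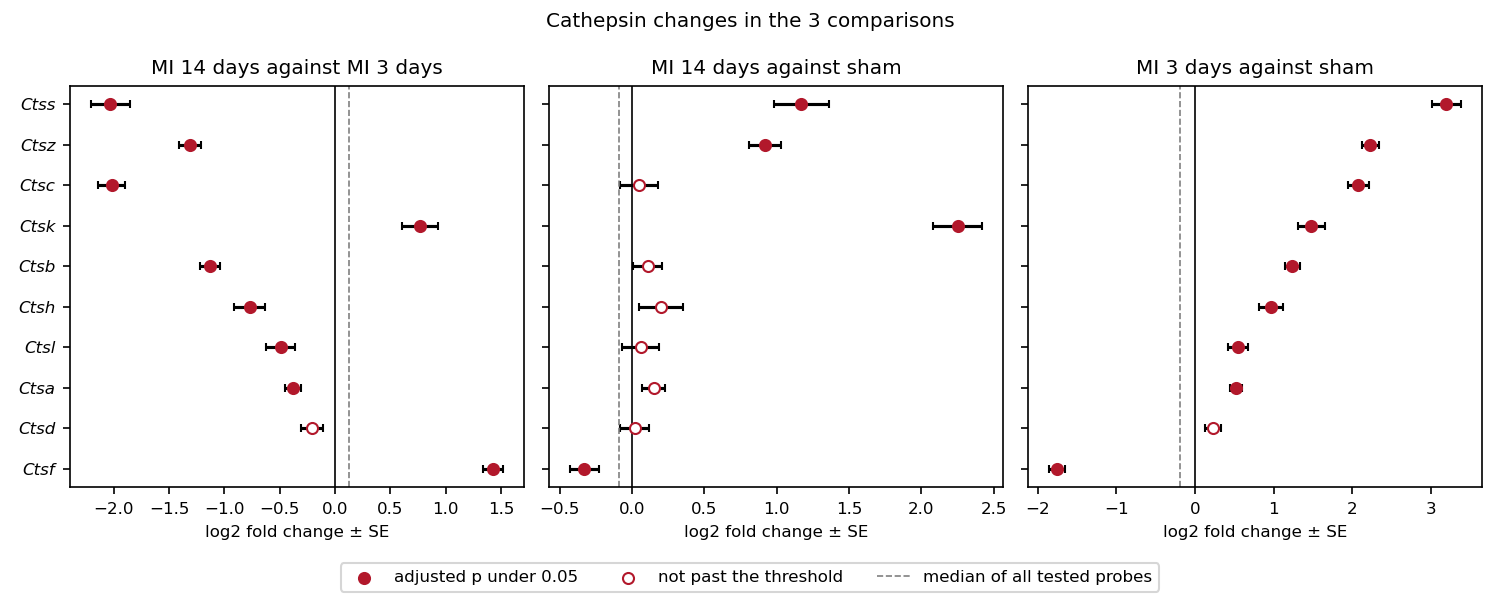
Log2 fold change of each cathepsin transcript, with its SE, in the comparisons of MI 14 days with MI 3 days, MI 14 days with sham and MI 3 days with sham. Filled points are past the threshold, and the dashed line is the median of all tested probes, 0.13, -0.09 and -0.19 in that order of panels. Ctsk and Ctsf are the 2 filled points right of 0 in the first panel.

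Profiles over the 14 arrays were compared by the root-mean-square difference of log2 levels after each gene was centred on its mean, where 0 is the same profile. Ctsa and Ctsd were the closest pair of members (0.155), then Ctsa and Ctsl (0.202) and Ctsb and Ctsh (0.223). Ctsf and Ctss were the farthest (2.09). No member was among the 3 most like genes of another. Genes near to Ctss were Pik3r5 (0.093) and Rab32 (0.149), and to Ctsz Plpp2 (0.126), Bid (0.132) and Exoc3l4 (0.138). Ctsc was nearest to Ccne1 (0.163), Lgmn (0.177) and Rfc5 (0.182). For Ctsh they were Csf1r (0.098), Bin3 (0.121) and Necap2 (0.123), and for Ctsb Eif4e2 (0.080), H3c4 (0.105) and Cdca4 (0.107). Ctsk was nearest to Col16a1 (0.173), Adamts2 (0.186) and Serpinf1 (0.217), of which Col16a1 had changes of 2.45 at 14 days and 1.84 at 3 days. Ctsf was nearest to Nudt11 (0.124), 0610009L18Rik (0.130) and Gstt1 (0.130). The members with small changes had very close neighbours, Ctsd with Traf2 (0.065), Nubp2 (0.067) and Prpsap1 (0.093), Ctsa with Rap1gds1 (0.066), Atox1 (0.068) and Rpl17 (0.072), and Ctsl with Tnfsfm13 (0.080), Rilpl2 (0.099) and St6gal1 (0.114). A profile that varies little lies near many others.

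The genes Ctsk and Ctss are neighbours on mouse chromosome 3, with 1 gene model and 0 protein-coding genes between them, and between the 2 times their changes had opposite signs (0.77 and -2.03). Their promoters are shown for that reason. Those of Ctsd and Ctsf are shown because both hold the palindrome CACGTG, which MiT/TFE factors bind in lysosomal genes, while at 3 days Ctsf fell and Ctsd was not past the threshold. Ctsa and Ctsl, whose promoters are not shown, hold it too, and both rose at 3 days (0.52 ± 0.08 and 0.55 ± 0.13). Each promoter shown is from RefSeq on GRCm38.p6, from 250 bases before the annotated start to 30 after it, written 5′ to 3′ on the gene's strand. Capitals mark GAGGAAG, a core of the sites of the myeloid factor PU.1, or its reverse complement CTTCCTC in Ctss and Ctsk, and CACGTG in Ctsd and Ctsf, with the flanking base of TCACGTG where it is there.
Ctss, chr3:95526536-95526815, plus strand: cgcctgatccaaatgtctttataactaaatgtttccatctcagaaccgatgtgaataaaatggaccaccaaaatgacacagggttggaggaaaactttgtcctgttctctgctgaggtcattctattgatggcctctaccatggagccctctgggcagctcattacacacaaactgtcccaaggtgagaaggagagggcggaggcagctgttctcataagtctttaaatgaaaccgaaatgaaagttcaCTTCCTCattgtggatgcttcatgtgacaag
Ctsk, chr3:95498960-95499239, plus strand: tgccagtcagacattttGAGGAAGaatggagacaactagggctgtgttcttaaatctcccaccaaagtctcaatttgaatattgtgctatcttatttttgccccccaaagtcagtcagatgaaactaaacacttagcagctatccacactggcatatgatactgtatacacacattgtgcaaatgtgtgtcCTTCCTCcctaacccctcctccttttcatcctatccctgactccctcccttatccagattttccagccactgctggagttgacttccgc
Ctsd, chr7:142387798-142388077, minus strand: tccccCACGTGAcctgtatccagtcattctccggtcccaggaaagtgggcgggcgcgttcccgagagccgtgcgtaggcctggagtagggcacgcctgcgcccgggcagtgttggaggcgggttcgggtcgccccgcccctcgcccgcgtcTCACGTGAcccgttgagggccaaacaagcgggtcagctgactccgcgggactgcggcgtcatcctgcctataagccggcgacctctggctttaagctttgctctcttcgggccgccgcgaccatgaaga
Ctsf, chr19:4854915-4855194, plus strand: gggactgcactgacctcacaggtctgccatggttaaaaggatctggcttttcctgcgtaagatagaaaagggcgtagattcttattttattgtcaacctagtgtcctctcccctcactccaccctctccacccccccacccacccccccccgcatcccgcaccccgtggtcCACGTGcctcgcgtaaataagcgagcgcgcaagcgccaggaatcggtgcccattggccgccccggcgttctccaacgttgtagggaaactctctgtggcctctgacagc

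RefSeq windows of 250 bases before to 50 after the start were at hand for 8 of the 10 genes, 9 windows in all since Ctsa has 2 starts. On either strand, CACGTG was in the windows of 4 of these genes (Ctsa, Ctsd, Ctsf and Ctsl) and in 7.15% of all 32851 windows. TCACGTG, which contains it, was in those of Ctsa and Ctsd and in 3.77% of all windows. GAGGAAG was in the windows of Ctsc, Ctsk and Ctss, and in 13.6% of all. The AP-1 motif TGANTCA was in none of the 9 windows and in 7.81% of all, and GGGCGG, the GC box, was in those of 5 of the genes and in 35.7% of all. A match only says that the letters are there.

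The other members of the family that were on the array were mostly dim. Of 13 such genes 10 were not bright enough to be tested, among them Ctse and the placental cathepsins. Ctso, a papain-like protease, was lower than sham at 3 days (-0.36 ± 0.10, adjusted p = 0.00807) and higher at 14 days than at 3 days (0.44 ± 0.10). The call of Ctso at 3 days ended with median centring (-0.17) and in the 3 settings on the scanner arrays alone (-0.29 to -0.19), and that between the times with a slide block and with normexp (0.28 in both). Ctsw, a cathepsin of cytotoxic lymphocytes, was higher at 14 days (0.49 ± 0.18, adjusted p = 0.0458), a call that ended in 16 of 25 alternatives, arrays left out in turn included, for example with the slide as a block (0.32).

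A list of protease inhibitors held cystatins, stefins, the propeptide-like Ctla2 genes and serpins. Counts for this list and those below can be set beside the shares of all named genes past the threshold. These were 29.8% higher and 40.5% lower at 3 days, 15.9% and 24.2% at 14 days, and 33.6% and 26.9% between the times. Of 11 inhibitors tested 7 were higher and 3 lower than sham at 3 days, with a median of 1.17. Among them Stfa2l1 and Cst7, both higher, were bright enough to be tested only at MI 3 days. Cst9, which was lower, was bright enough only in sham hearts. The place of these genes in the counts came through that brightness. Serpinb1a, an inhibitor of neutrophil proteases, rose by 3.79 ± 0.17 (adjusted p = 1.47e-09) and Cstb, the stefin of the cytosol, by 2.06 ± 0.13 (adjusted p = 2.27e-08). The stefin gene Stfa2l1 was at least 10.3-fold higher and the cystatin F gene Cst7, a cystatin of immune cells that reaches lysosomes, at least 3.22-fold higher, since no sham array was above background for them. Cst9 was at least 6.76-fold lower, a bound that rests on 2 of the 5 MI 3 days arrays, and Cst6 fell by 1.13 ± 0.10. Cst3, which encodes the secreted cystatin C, was not past the threshold (-0.25 ± 0.12, adjusted p = 0.0911). At 14 days 2 of the 11 were higher than sham and 0 lower in limma (1 at an unadjusted p under 0.05; median 0.05), Serpinb1a by 1.49 ± 0.17 and Cst6 by 0.47 ± 0.10. Between the times 3 were higher and 7 lower at 14 days (median -1.12), with Cst9 at least 5.64-fold higher and Stfa2l1 at least 9.70-fold lower.

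The genes that deliver and mature lysosomal enzymes changed in part. Of 8 genes of sorting and maturation 4 rose and 1 fell at 3 days (median 0.21), 0 rose and 1 fell at 14 days (median -0.05), and 1 was higher and 4 lower between the times (median -0.19). Lgmn, the legumain that cuts cathepsin proenzymes, was 3.51-fold higher at 3 days (1.81 ± 0.10) and fell between the times (-1.73 ± 0.09), and it was among the 3 genes nearest to Ctsc. Sort1, the sorting receptor sortilin, fell against sham at both times (-0.56 ± 0.10 at 14 days and -0.88 ± 0.10 at 3 days).

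Of 33 other lysosomal hydrolases 18 were higher and 7 lower at 3 days, against 29.8% and 40.5% of all named genes. Their median change was 0.50 (1.10 for the cathepsins). Gusb, the beta-glucuronidase, rose by 1.82 ± 0.08, and Gaa, the glycogen-degrading acid alpha-glucosidase, fell by 1.07 ± 0.08. At 14 days 12 were higher and 3 lower (median 0.20), and among those that fell was Ppt2, a thioesterase (-0.49 ± 0.09). Between the times 6 were higher and 16 lower (median -0.17), with Idua, the alpha-iduronidase, at 0.81 ± 0.10 and Gusb at -1.41 ± 0.08.

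Of 17 genes of the lysosomal membrane and its proton pump 7 rose and 1 fell at 3 days (median 0.20), against 29.8% and 40.5% of all named genes. At 14 days 3 rose and 3 fell (median -0.08), and between the times 2 were higher and 10 lower (median -0.38). Laptm5, a lysosomal membrane protein of blood cells, rose by 3.1 ± 0.2 at 3 days and 1.45 ± 0.20 at 14 days. Laptm4a, its widely expressed relative, fell at 3 days (-0.47 ± 0.08, or -0.26 with normexp, where its call ended), and Scarb2, the receptor that carries beta-glucocerebrosidase to lysosomes, fell at 14 days (-0.41 ± 0.10). Between the times Atp6v0d2, a pump subunit of osteoclasts and macrophages, was lower, with 1 of the 4 MI 14 days scanner arrays above background, so the size of its change is uncertain (-2.36 ± 0.28). Only at MI 3 days was Atp6v0d2, 1 of the 7 that rose, bright enough to be tested. Ctns, the cystine exporter, was at 0.28 ± 0.08. The call of Ctns ended in 4 of 25 alternatives, among them the slide as a block (0.17) and median centring (0.08). That of Scarb2 ended with the slide as a block (-0.41).

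The MiT/TFE transcription factors, which switch on lysosomal genes, moved in both directions. Of 4 genes 2 were higher and 2 lower at 3 days (median -0.16), 0 higher in limma (1 at an unadjusted p under 0.05) and 2 lower at 14 days (median -0.22), and 2 higher and 2 lower between the times (median -0.06). Mitf fell by 2.11 ± 0.09 at 3 days and by 0.93 ± 0.09 at 14 days. Tfec, the member found in macrophages, was at least 4.75-fold higher at 3 days than in sham hearts and at least 4.18-fold lower at 14 days than at 3 days. Only at MI 3 days was Tfec bright enough to be tested.

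**Figure D4:**
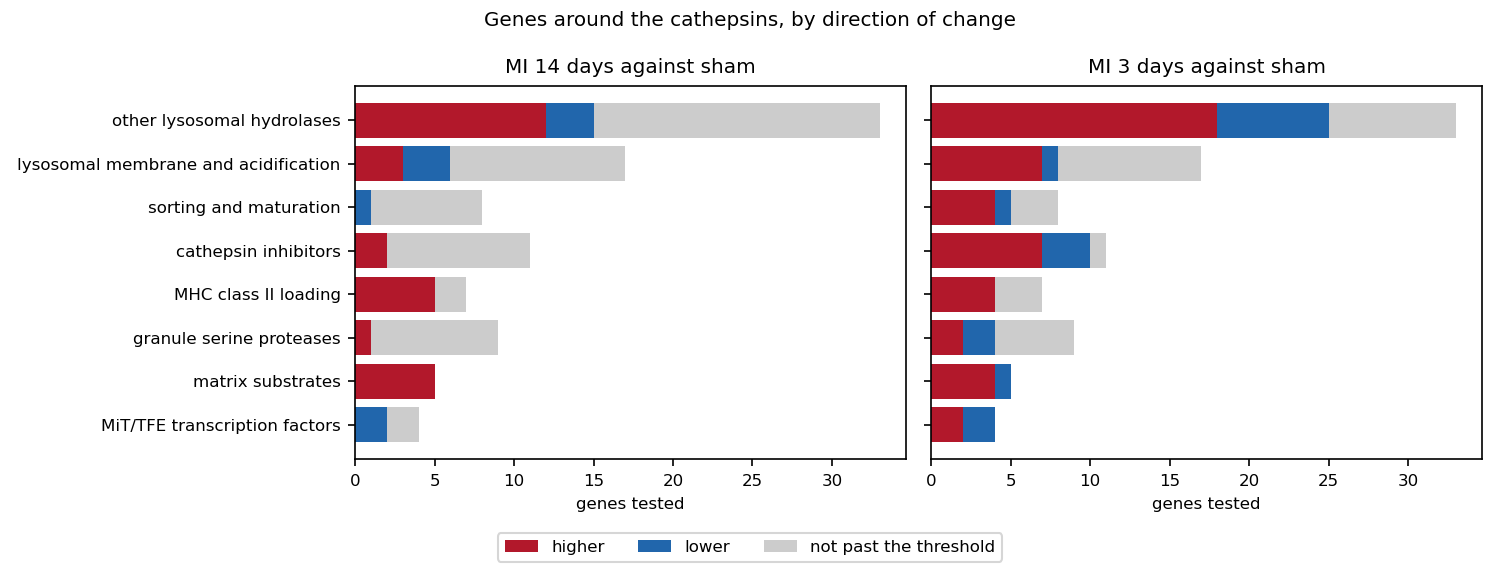
Number of tested genes higher (red), lower (blue) or not past the threshold (grey) in 8 gene groups around the cathepsins, for MI 14 days against sham and MI 3 days against sham. Of 33 other hydrolases 12 were higher at 14 days and 18 at 3 days, and of 11 inhibitors 2 and 7.

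Genes that act with single cathepsins were set beside them. For Ctss, of 7 genes of MHC class II molecules and their loading 4 were higher at 3 days and 5 at 14 days, with 0 lower at either time (medians 0.60 and 0.71). H2-DMb1, a chain of the peptide-loading molecule, was higher at both times (1.0 ± 0.20 at 14 days and 1.51 ± 0.20 at 3 days). Between the times 1 was higher and 2 lower (median 0.14), H2-Eb1 at 0.58 ± 0.23, a call that ended in 18 of 25 alternatives, and H2-DMa at -0.61 ± 0.17, a call that ended with a slide block (-0.44). For Ctsc, of 9 granule serine proteases 2 were higher and 2 lower at 3 days (median -0.17). Prtn3, the neutrophil proteinase 3, was at least 2.31-fold higher, with 0.67 on the scanner arrays where its call ended, and Mcpt4, a mast cell chymase, fell (-2.06 ± 0.21). Only at MI 3 days was Prtn3 bright enough to be tested. At 14 days 1 was higher and 0 lower (median -0.18), the lymphocyte granzyme gene Gzmk (0.40 ± 0.13). Its call ended in 7 of 25 alternatives, for example with the slide as a block (0.34). Between the times 2 were higher and 1 lower, with Mcpt4 at 1.88 ± 0.19 and Prtn3 at -1.37 ± 0.49. The Prtn3 call between the times ended in 7 of 24 alternatives, for example on the scanner arrays (-0.58), and changed sign in 1. For Ctsk, of 5 matrix proteins that it and other cathepsins can cut 4 were higher and 1 lower at 3 days (median 2.63) and 5 higher at 14 days (median 2.62). Fn1, fibronectin, was higher at both times (2.93 ± 0.25 at 14 days and 3.68 ± 0.25 at 3 days). Eln, elastin, was lower at 3 days (-1.0 ± 0.29) and 12.1-fold higher at 14 days than at 3 days (3.60 ± 0.27), while Fn1 was lower by then (-0.75 ± 0.24). Between the times 1 of the 5 was higher and 1 lower (median -0.01). The calls of Eln at 3 days and of Fn1 between the times ended with the slide as a block (-0.86 and -0.89).

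Markers of several cell types moved with the cathepsins, and their part in the changes above was not tested. Of 13 macrophage markers 12 rose and 1 fell at 3 days, and 6 rose and 0 fell at 14 days, with medians of 1.68 and 0.55. Between the times 1 was higher and 12 lower (median -1.26). The mean level of the list was 1.99 to 2.40 at MI 14 days, 3.20 to 3.84 at MI 3 days and 1.48 to 1.73 in sham hearts, without overlap and in the order of Ctss and Ctsz. By the medians of their arrays, the hydrolase, lysosomal membrane, MHC class II, osteoclast and B cell lists had this order too. The macrophage mean was highest at MI 3 days in replicate 3, the array that was highest for 7 cathepsins. That array was also the highest of its group for the neutrophil, osteoclast, B cell and red blood cell lists. The same held for the inhibitor, hydrolase, lysosomal membrane and MHC class II lists, but not for the fibroblast, cardiomyocyte or endothelial lists. The scavenger receptor gene Msr1 was 18.8-fold higher at 3 days (4.24 ± 0.23) and the Fc receptor gene Fcgr1 was 2.31-fold higher at 14 days (1.21 ± 0.17). Itgam was the 1 that fell at 3 days (-0.75 ± 0.10) and its probes disagreed, since their mean gave 0.25.

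Of 7 neutrophil markers 5 rose and 1 fell at 3 days (median 3.43). Mmp8 and Cxcr2, among the 5 that rose, were bright enough to be tested only at MI 3 days. Csf3r was the 1 that fell (-0.19 ± 0.08), a call that ended in 19 of 25 alternatives and changed sign in 1. At 14 days 0 of the 7 were past the threshold in limma (1 higher and 1 lower at an unadjusted p under 0.05, median 0.03). Between the times 2 were higher and 5 lower (median -3.55). The mean level was -1.66 to -0.17 at MI 14 days, 1.22 to 2.43 at MI 3 days and -0.99 to -0.43 in sham hearts. The neutrophil collagenase gene Mmp8 was at least 14.1-fold higher at 3 days, while the granule genes Ngp and Ltf were too dim to test.

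The mean level of the fibroblast markers had the order of Ctsk, but not every gene of the list did. Dcn was below sham at 3 days, and Col1a1 was at -0.32 ± 0.18 between the times, not past the threshold. By the medians of their arrays, the matrix protein list and the T and NK cell list had this order too. The matrix list shares Col1a1 with the fibroblast list. Between the times Eln was its 1 gene called higher (3.60 ± 0.27), and Fn1 was called lower (-0.75 ± 0.24). Of 8 fibroblast markers measured 4 rose and 1 fell at 3 days (median 0.23), 8 rose and 0 fell at 14 days (median 1.29), and 4 were higher and 0 lower between the times (median 0.42). Their mean level was 3.96 to 4.48 at MI 14 days, 3.32 to 3.85 at MI 3 days and 2.58 to 2.86 in sham hearts, with the highest MI 14 days array in replicate 3 and the lowest MI 3 days array in replicate 3, as for Ctsk. MI 14 days replicate 3 was also the highest of its group for the macrophage, hydrolase, MHC class II, B cell, and T and NK cell lists, among others. Postn, the matrix protein periostin, rose by 3.45 ± 0.20 at 14 days and 3.36 ± 0.20 at 3 days. Dcn, decorin, fell at 3 days (-0.56 ± 0.08), and Lum, lumican, was higher at 14 days than at 3 days (1.72 ± 0.13).

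The mean level of the cardiomyocyte markers had the order of Ctsf, though MI 14 days and sham arrays overlapped. This order was not theirs alone. Without overlap, the endothelial list had it too. Its mean level was 1.81 to 1.94 at MI 14 days, 1.68 to 1.79 at MI 3 days and 1.97 to 2.02 in sham hearts. The Schwann cell and atrial cardiomyocyte lists had it by the medians of their arrays. Of the 9 cardiomyocyte genes 0 rose and 9 fell at 3 days (median -0.98), 0 rose and 3 fell at 14 days (median -0.16), and 9 were higher between the times (median 0.79). Pln, which encodes phospholamban, changed by -2.03 ± 0.21 at 3 days and by -0.85 ± 0.21 at 14 days. MI 3 days replicate 3 had the lowest mean level of the cardiomyocyte list (7.19) and the lowest Ctsf. That array was also the lowest of its group for the fibroblast, Schwann cell, and smooth muscle and pericyte lists.

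Since Ctsk is best known from osteoclasts, markers of these cells were read too. Of 6 tested 4 rose and 1 fell at 3 days (median 1.66), 2 rose and 0 fell at 14 days (median 0.17), and 1 was higher and 3 lower between the times (median -1.17). Atp6v0d2, 1 of the 4 that rose at 3 days, was bright enough to be tested only at MI 3 days. Its place in these counts and in the mean level of the list came through that brightness. The mean level of the 6 was -1.65 to -1.43 at MI 14 days, -0.33 to 0.15 at MI 3 days and -2.25 to -1.82 in sham hearts. This was without overlap and in the order of Ctss and Ctsz. The mean level of Ctsk was highest at 14 days, and the part of osteoclasts in it was not tested. The osteoclast genes Calcr and Dcstamp were too dim to test, and Ocstamp was not past the threshold in any comparison. Oscar was the 1 that fell at 3 days, a call that ended in 6 of 25 alternatives. It was also the 1 that was higher between the times, where its call ended in 10 of 25. Mmp9, a gelatinase that neutrophils also carry, was at least 7.81-fold higher at 3 days, and Acp5, an acid phosphatase that macrophages also make, rose by 1.98 ± 0.25 at 14 days.

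**Figure D5:**
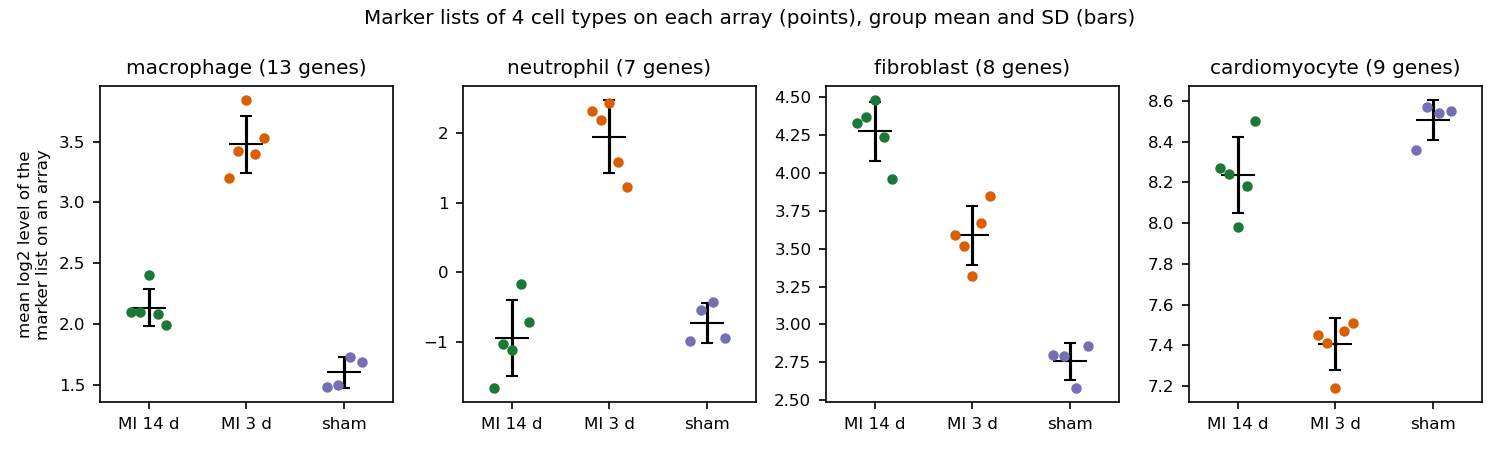
Mean log2 level of 4 marker lists on each array at MI 14 days, MI 3 days and in sham hearts (points), with the group mean and SD (bars). Macrophage and neutrophil markers are highest at MI 3 days, fibroblast markers at MI 14 days, and cardiomyocyte markers are lowest at MI 3 days.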

How the data were processed

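RNA of 14 mouse hearts was read on 1-colour Agilent arrays. In the deposited value table each probe has a linear Cy3 intensity for every array, with no scaling between arrays. Scanner output for 10 of the arrays was made by the authors with Feature Extraction 10.7.3.1, per the file headers, and its processed signal has the background removed. The submitters' processing notes list limma and give no role for it.

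Log2 was taken of the intensity deposited by the authors, and each array's 75th percentile over non-control probes was subtracted. Probes were named through their accession in a RefSeq gene table (GRCm38.p6), which gave 1 symbol to 27144 probes and none to 28338. The scanner files used here hold no gene name column, so members were found this way. Probes that were not well above background on all scanner arrays of any group were left out (23221). A probe that passed through 1 group only entered the counts by its brightness in that group. One model of the 3 groups was fitted with limma 3.58.1 (R 4.3.3; lmFit, contrasts.fit, eBayes, two-sided). The brightest probe stood for a gene. For a probe above background on no scanner array of a group, the fold is a lower bound against the higher of the lowest well-measured signal and the probe's own. The fit was tested on simulated data.

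Text names every member and, from each gene list and comparison, the largest rise and fall past the threshold, plus the 3 genes most like each member, and a few genes that this rule picks are not reported here. A few others were named after their values were seen (Cstb, Cst3, Cst6, Cst7, Ocstamp). The members, the lists of inhibitors, lysosomal genes and cell type markers, and the tests were chosen with earlier results of these data known. Scaling, filters, probe choice, slide, replicate number and single arrays were varied. The number of arrays limits the precision.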

Additional observations from a re-analysis of the deposited data

Results flagged for a closer look

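In 30 sets of levels (10 genes in 3 groups) 2 had an array far from the rest, and chance gives such a gap in about 1 of 20. Ctsl stood at 6.68 in MI 3 days replicate 3, against 5.96 to 6.11 on the other 4 arrays. Ctsz stood at 5.42 on the same array, against 4.93 to 5.06. Without this array the 3-day rise of Ctsl was 0.42 and that of Ctsz 2.15.

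For 9 of the 10 genes the change after infarction differed between the times, by the test of MI 14 days against MI 3 days in limma. The same was so for 60.5% of all named genes. The log2 differences were -2.03 for Ctss, -2.02 for Ctsc, -1.31 for Ctsz, -1.13 for Ctsb, -0.77 for Ctsh, -0.49 for Ctsl and -0.38 for Ctsa. They were 1.43 for Ctsf and 0.77 for Ctsk. With a slide block that of Ctsk lost the threshold (0.43).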

How the results depend on the processing

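Over the 25 alternatives of each cathepsin change, 725 of 750 values kept their direction and side of the threshold, 7 lost the threshold, 10 gained it and 8 changed sign. Within slides 40 of 50 differences moved by less than 1 SD of the replicates, and no called one changed sign. The sign changes were all of differences from sham at 14 days that were not past the threshold. Ctsd gave -0.06 with the mean of its probes, -0.08 with the slide as a block and -0.09 with normexp on the scanner arrays, and -0.04 to 0.08 with 1 array left out. Ctsc gave -0.03 to 0.14 with 1 array left out. Among other named genes 6 of 2207 values changed sign. At 3 days Csf3r gave 0.05 with quantile normalization, Itgam 0.25 and Nkg7 0.35 with the mean of probes, and Prtn3 -0.01 with normexp. Between the times Itgam gave -0.34 with the mean of probes and Prtn3 0.08 with normexp. On the 10 scanner arrays 8761 probes were called at 14 days (10492 on all 14) and 12383 between the times (17947 on all 14). On these 10 arrays a slide block gave 5081 and 9129, and normexp gave 10625 between the times.

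With 1 array left out, 19792 to 21446 probes were called at 3 days, 8723 to 10795 at 14 days and 16509 to 18325 between the times, and 9 to 10, 4 to 4 and 9 to 10 cathepsins. The median over all tested probes was -0.19 at 3 days, or -0.01 with median centring, and 0.13 between the times, or -0.06. Of the called probes 39.1% were higher at 3 days, or 51.0% with median centring. At 14 days this was 39.2%, or 53.0% with the 75th percentile of tested probes, and between the times 58.8%, or 38.6% with median centring. Replicate numbers did not pair the arrays (13 correlations of -0.135 to 0.225), and the replicate block called 20969, 10383 and 17841 probes with 9, 4 and 9 cathepsins, in the order 3 days, 14 days and between the times. Normexp on median signals was chosen after the data were seen, as the files hold no mean signals. Scanner signals of 4 arrays were not used here, so for MI 3 days background rests on 2 of 5 arrays.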

Other observations

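Cell types beyond those above were read from short marker lists. Of 6 endothelial markers 1 rose (Cdh5, 0.24 ± 0.08, with 0.10 to 0.19 on the scanner arrays and 0.20 without sham replicate 1, where its call ended) and 2 fell at 3 days (Tek, -0.82 ± 0.10), and 0 rose and 1 fell at 14 days (Pecam1, -0.30 ± 0.08). That call ended with the 75th percentile of tested probes (-0.22) and with a slide block (-0.33). Of 5 smooth muscle and pericyte markers 2 rose and 3 fell at 3 days, with Acta2 at 0.92 ± 0.17 and Kcnj8 at -1.47 ± 0.14, and at 14 days 0 were past the threshold in limma (1 at an unadjusted p under 0.05). Of 3 T and NK cell markers tested 1 rose (Cd3d, 1.32 ± 0.31) and 1 fell (Nkg7, -0.29 ± 0.09) at 3 days, and Cd3d was higher at 14 days (1.58 ± 0.31). Only 1 of the 4 sham arrays had Cd3d above background, and with normexp its calls ended (0.36 at 14 days and 0.07 at 3 days). The call of Nkg7 ended with median centring (-0.11), a slide block (-0.32), normexp (-0.30) and without sham replicate 2 (-0.24). Of 4 B cell markers 1 rose at 3 days (Cd79b, 1.21 ± 0.34, or 1.1 with a slide block, where its call ended) and 0 were past the threshold in limma at 14 days (1 at an unadjusted p under 0.05). Of 4 mast cell markers 1 rose (Kit, 1.47 ± 0.18) and 3 fell at 3 days, and Kit was higher at 14 days (0.60 ± 0.18). The 14-day call ended on the scanner arrays (0.54), with a slide block (0.59) and without sham replicate 3 (0.49).

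Of 4 atrial cardiomyocyte markers 1 rose and 3 fell at both times. Nppa, a peptide gene that ventricles also make under load, rose by 3.67 ± 0.18 at 14 days and 2.84 ± 0.18 at 3 days, while Sln fell (-3.82 ± 1.05 at 14 days and -5.12 ± 1.05 at 3 days). The mean level of this list ranged widely in each group, from 0.45 to 2.62 at MI 14 days, from -0.22 to 0.82 at MI 3 days and from 1.23 to 3.73 in sham hearts. Of 3 Schwann cell markers 2 fell at 3 days and 1 at 14 days. Of 2 adipocyte markers 0 were past the threshold against sham in limma, also at an unadjusted p under 0.05, and both were higher at 14 days than at 3 days (Adipoq, 3.57 ± 1.07). The call of Adipoq ended with a slide block (3.12) and with normexp (1.51). The mean level of the adipocyte list was 0.41 in MI 14 days replicate 3, against -5.56 to -2.98 on the other 4 arrays. The 4 red blood cell markers had 0 past the threshold in limma in any comparison, and 0 at an unadjusted p under 0.05. MI 14 days replicate 3, highest of its group for 6 cathepsins, and sham replicate 4, highest for 7, were also highest for the atrial and adipocyte lists, and the part of such tissue in the cathepsin levels was not tested.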
